A study of Rattus norvegicus with 16 samples.

Results

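Transcripts of 4 lysosomal genes, the cathepsins Ctsb, Ctsd and Ctsl and the membrane glycoprotein Lamp1, were followed in primary rat microglia given lipopolysaccharide (LPS), apolipoprotein A-I (ApoA-I) or both. The genes were taken by identifier, ENSRNOG00000010331 for Ctsb, ENSRNOG00000020206 for Ctsd, ENSRNOG00000018566 for Ctsl and ENSRNOG00000019629 for Lamp1. These are 4 of 30560 genes listed in the deposited tables and 4 of the 11902 with enough counts to be tested. The tables list identifiers without symbols, and the symbols used here are those given with the set; a rat Ensembl annotation was not used here, so the pairing was not checked.

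The data are bulk RNA sequencing of 16 libraries in 4 groups of 4. LPS+ApoA-I cells received LPS at 100 ng/ml for 20 hours with ApoA-I protein at 100 ug/ml in the medium, LPS cells received LPS alone, ApoA-I cells received ApoA-I alone, and Control cells received neither. All were wild type primary cells labelled as microglia, at day 12 in vitro. LPS, a glycolipid of the bacterial cell envelope, is the ligand of Toll-like receptor 4, and ApoA-I is the main protein of high-density lipoprotein. Age, sex and strain of the rats are not given in the sources used here, and the label of microglia could not be checked against marker genes because identifiers could not be paired with names. Nothing states whether replicates were separate cultures or animals. The spread behind each p-value is that of these libraries and may be technical.

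Lysosomes are the acidic compartments in which phagocytes such as microglia digest engulfed and internal material. Cathepsins are among their main proteases: they are made as inactive precursors, delivered through the mannose 6-phosphate pathway and activated by the acid pH. Cathepsins B and L are cysteine proteases of the papain family, cathepsin D is an aspartic protease of the pepsin family, and Lamp1 is a heavily glycosylated protein that is abundant in the lysosomal membrane. In mammals many lysosomal genes are under the transcription factors TFEB, TFE3 and MITF, which bind promoter elements built around the E-box CACGTG.

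The promoters are shown as a description of the sequences, and a link between them and the changes with LPS was not tested. RefSeq windows of 250 bases before to 50 bases after the annotated start, on build GRCr8, were matched by symbol for 3 of the 4 genes (Ctsd, Ctsl and Lamp1). They lie at chr1:206968772-206969071 on the minus strand for Ctsd, at chr16:83075014-83075313 on the minus strand for Lamp1 and at chr17:769854-770153 on the plus strand for Ctsl. The sequences run 5′ to 3′ along the gene, and capitals mark each CACGTG, which reads the same on both strands.
Ctsd: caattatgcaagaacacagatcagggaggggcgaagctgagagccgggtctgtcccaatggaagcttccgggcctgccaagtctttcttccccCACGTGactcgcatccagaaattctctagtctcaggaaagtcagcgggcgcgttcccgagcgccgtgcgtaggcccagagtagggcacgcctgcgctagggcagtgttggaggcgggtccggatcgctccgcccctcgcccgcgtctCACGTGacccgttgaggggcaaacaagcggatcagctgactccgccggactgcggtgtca
Lamp1: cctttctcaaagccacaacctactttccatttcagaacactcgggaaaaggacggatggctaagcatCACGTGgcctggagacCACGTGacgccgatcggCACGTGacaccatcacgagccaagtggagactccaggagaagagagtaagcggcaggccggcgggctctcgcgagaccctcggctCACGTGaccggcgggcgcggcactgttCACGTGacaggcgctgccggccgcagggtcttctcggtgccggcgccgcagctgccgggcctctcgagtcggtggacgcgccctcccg
Ctsl: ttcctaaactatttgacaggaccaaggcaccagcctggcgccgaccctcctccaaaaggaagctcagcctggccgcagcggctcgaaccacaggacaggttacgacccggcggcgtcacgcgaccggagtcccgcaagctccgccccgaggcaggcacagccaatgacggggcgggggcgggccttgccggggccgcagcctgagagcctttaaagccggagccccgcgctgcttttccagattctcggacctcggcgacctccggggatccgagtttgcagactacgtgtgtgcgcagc
The Lamp1 window held 5 copies of CACGTG, the Ctsd window held 2 and the Ctsl window held 0. Of 33469 promoter windows of the same length, 6.42% held at least 1 copy and 174 held at least 2. Only 1 window, that of Lamp1, held 5. The longer TCACGTGA, which contains CACGTG and was searched on both strands, occurred in 2 places for Lamp1, in 1 for Ctsd and in 0 for Ctsl, against 0.777% of all windows with at least 1. The windows were 63.0% G or C for Ctsd, 65.7% for Lamp1 and 66.7% for Ctsl, against a median of 51.7% over all windows. A match of letters is a description and does not show binding, and the absence of these letters says nothing of the factors at Ctsl.

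**Figure D1:**
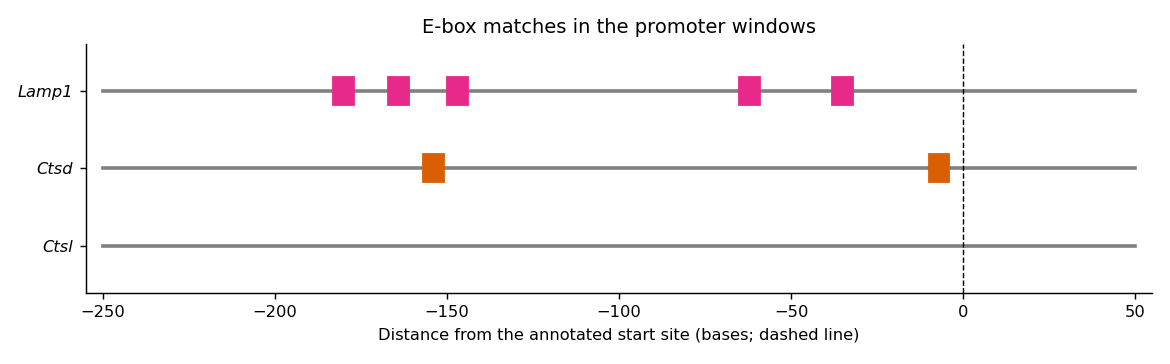
Position of each E-box match (coloured blocks, 6 bases wide) in the 300-base promoter windows of Lamp1, Ctsd and Ctsl, in bases from the annotated start site (dashed line). Lamp1 has 5 matches that begin between -183 and -38, Ctsd has 2 that begin at -157 and -10, and Ctsl has none.

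Levels are given in TPM, a share of all transcripts of a library that takes transcript length into account and so can be compared between genes. Libraries held 12304916 to 17262383 estimated counts in all, and the 4 genes had from 4459 to 70773 estimated counts each, so counting error was at most 1.5% of a value. In bulk RNA, fewer cells of a type and less RNA per cell cannot be told apart. Changes were tested with edgeR's quasi-likelihood test on counts scaled by TMM, which sets libraries to a common level over most genes. Its scaling factors were 0.912 to 0.953 in LPS+ApoA-I, 0.812 to 0.916 in LPS, 1.07 to 1.18 in ApoA-I and 1.05 to 1.15 in Control libraries. The library with the 0.916, LPS 4, stood apart: 2.08% of its counts lay in 8 abundant genes that varied together within groups and include none of the 4 genes, against 10.2% to 11.96% in the other LPS libraries. ApoA-I 2 stood apart in the other direction, with 9.43% against 1.61% to 2.66% in the other ApoA-I libraries. Its share lay within the ranges of the Control libraries, 4.05% to 11.9%, and of the LPS+ApoA-I libraries, 6.81% to 12.8%. A change read from library totals differs from the edgeR change by a shift that is nearly the same for all genes; on log2(TPM + 1) the shift was not the same for all genes. With library totals only, the median log2 change over all genes was -0.42 for LPS against Control, where it was -0.04 with TMM. It was 0.18 in place of 0.03 for LPS+ApoA-I against LPS, -0.30 in place of -0.01 for LPS+ApoA-I against ApoA-I, -0.24 in place of -0.01 for LPS+ApoA-I against Control, and 0.13 in place of 0.04 for the interaction. The share of higher genes among those called moved from 48.6% with TMM to 25.5% with totals for LPS against Control, from 51.4% to 71.8% for LPS+ApoA-I against LPS, and from 49.8% to 26.7% for LPS+ApoA-I against ApoA-I. For LPS+ApoA-I against Control it moved from 49.4% to 31.2%, for ApoA-I against Control from 58.5% to 83.1%, and for the interaction from 50.7% to 65.1%.

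LPS against Control asked how the lysosomal genes respond to LPS. Ctsd fell 6.80-fold, Ctsb fell 2.93-fold and Lamp1 fell 1.57-fold, while Ctsl rose 3.37-fold (edgeR, TMM scaling, n = 4 each). All 4 genes passed the test, 3 lower and 1 higher, against 74.7% of all genes tested, so passing was the common outcome here. The TPM values of the groups did not overlap in any of the 4 genes, against 68.9% of all genes tested. The size of the changes depended on the scaling. With TMM the log2 changes were -2.77 for Ctsd, -1.55 for Ctsb, -0.65 for Lamp1 and 1.75 for Ctsl. With library totals only they were -3.14, -1.93, -1.03 and 1.38, in the same order. The order of the levels turned over: Ctsl stood beside Ctsb at the top in LPS libraries and was the least abundant of the 4 genes in Control libraries.

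Ctsd encodes the aspartic protease cathepsin D, whose loss causes neuronal ceroid lipofuscinosis in humans. It had 324, 296, 296 and 354 TPM in the 4 LPS libraries, against 2772, 3051, 2895 and 2848 TPM in the Control libraries. Every LPS library was far below every Control library. The log2 change was -2.77 (SE 0.07, edgeR adjusted p = 9.26e-20), and 676 of the 11902 genes tested had a lower value.

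Ctsb encodes cathepsin B, which cuts proteins internally and also removes dipeptides from their C-terminal ends. It had 976, 968, 972 and 1070.2 TPM in LPS libraries, against 3883, 4065, 3816 and 3899.7 TPM in Control libraries. The groups did not overlap, and the highest LPS library, number 4, stood apart from the other LPS libraries. The log2 change was -1.55 (SE 0.05, edgeR adjusted p = 2.82e-17), with 1462 genes lower.

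Ctsl encodes cathepsin L, a strong endopeptidase that in the mouse also takes part in processing the invariant chain of MHC class II in the thymus. It had 897, 964, 944 and 1066 TPM in LPS libraries, against 379.9, 396, 370.3 and 392 TPM in Control libraries. All 4 LPS libraries were above all 4 Control libraries. The log2 change was 1.75 (SE 0.05, edgeR adjusted p = 2.20e-18), and 663 genes had a higher one.

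Lamp1 had 277, 291, 256 and 304 TPM in LPS libraries, against 581, 647, 575 and 571 TPM in Control libraries. The groups did not overlap in this gene either. Its log2 change of -0.65 (SE 0.04, edgeR adjusted p = 1.06e-11) was the smallest of the 4 in size, and 3137 genes had a lower one. With library totals only it was -1.03, which is 0.61 log2 units below the median of all genes under that scaling, as it was with TMM.

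**Figure D2:**
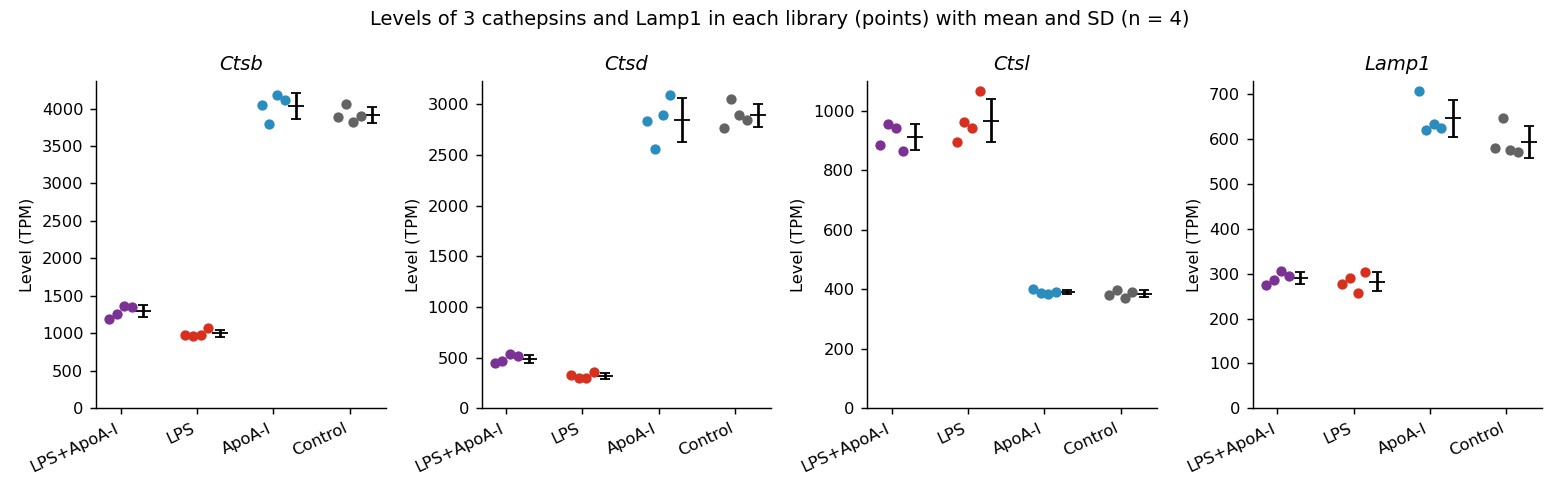
Level in TPM (axes from 0) of each gene in every library by group, with the mean and SD of 4 libraries beside the points. Libraries with LPS, alone or with ApoA-I, are below the others for Ctsb, Ctsd and Lamp1 and above them for Ctsl.

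Among all genes listed, Ctsb ranked between 148 and 160 by TPM in LPS libraries, against 25 to 35 in Control libraries. Ctsd ranked between 420 and 471 in LPS libraries, against 48 to 56 in Control libraries, and Lamp1 between 474 and 529, against 236 to 260. Ctsl moved the other way, with ranks of 150 to 173 in LPS libraries, against 348 to 359 in Control libraries. Together the 4 genes held 0.256% ± 0.0155 of all TPM in LPS libraries and 0.779% ± 0.0252 in Control libraries (SD, n = 4 each).

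In LPS libraries Ctsb was at 997 ± 49.2 and Ctsl at 968 ± 71.2 TPM, with overlapping ranges, followed by Ctsd at 318 ± 27.4 and Lamp1 at 282 ± 20.4 TPM (SD, n = 4), whose ranges also overlapped. In Control libraries the levels ran from Ctsb at 3916 ± 106 TPM through Ctsd at 2891 ± 118 and Lamp1 at 594 ± 35.8 to Ctsl at 385 ± 11.8 TPM (SD, n = 4). No neighbours in that order overlapped.

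The comparison of ApoA-I with Control asked whether the protein moved these genes on its own. None of the 4 genes passed edgeR's test, against 4.27% of all genes tested, a share from 508 genes that fell to 186 without ApoA-I 1, reached 775 without Control 4 and was 94 with only these 2 groups in the fit. Of the 4 genes, 0 passed at an unadjusted p under 0.05, and 0 passed in DESeq2 or in limma on log2(TPM + 1). Of all genes, 806 passed in DESeq2 and 310 in limma. Ctsb had 4041, 3796, 4187 and 4114 TPM in ApoA-I libraries and Ctsd had 2835, 2565, 2898 and 3092 TPM. Ctsl had 401, 388, 384 and 392 TPM and Lamp1 had 707, 620.5, 634 and 626 TPM. These values overlapped the Control values given above in every one of the 4 genes, where 7.51% of all genes tested had no overlap.

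The 95% intervals of the log2 change, ApoA-I against Control, ran from -0.14 to 0.08 for Ctsb, from -0.22 to 0.04 for Ctsd, from -0.15 to 0.06 for Ctsl and from -0.04 to 0.15 for Lamp1. Changes within these intervals remain possible. The small fitted changes of Ctsb (-0.03) and Ctsl (-0.05) had the opposite sign, 0.03 and 0.01, when only library totals were used.

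The comparison of LPS+ApoA-I with LPS asked how ApoA-I moved these genes in cells given LPS. Ctsd rose 1.40-fold and Ctsb rose 1.18-fold over LPS alone, and Ctsl fell 1.16-fold with TMM scaling (edgeR, n = 4 each). In edgeR 3 of the 4 genes passed, 2 higher and 1 lower, against 51.4% of all genes tested. In limma on log2(TPM + 1) 2 passed, Ctsb and Ctsd, both higher, where 5862 of the 11902 genes tested passed. The TPM values of the groups did not overlap in these 2 genes, against 47.4% of all genes tested.

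Ctsd had 443, 462, 531 and 511 TPM in LPS+ApoA-I libraries, above all 4 LPS values listed earlier, whose highest was 354. Its log2 change was 0.48 (SE 0.06, edgeR adjusted p = 1.40e-06), and 2239 of the genes tested had a higher one. Ctsb had 1195, 1260.5, 1369 and 1350.2 TPM in LPS+ApoA-I libraries, again above every LPS library. Its log2 change was 0.24 (SE 0.05, edgeR adjusted p = 4.80e-04). With library totals only the changes were 0.63 for Ctsd and 0.39 for Ctsb, in each case with the same call.

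Ctsl had 885, 958, 944 and 867 TPM in LPS+ApoA-I libraries, 2 of them below the lowest LPS library and none above the highest. Its log2 change was -0.22 with TMM (SE 0.05, edgeR adjusted p = 8.39e-04), but -0.07 with library totals (edgeR adjusted p = 0.392) and -0.08 on log2(TPM + 1) (limma adjusted p = 0.219). Lamp1 had 275.0, 287, 306.5 and 294 TPM in LPS+ApoA-I libraries, overlapping the LPS libraries. Its log2 change was -0.10 with TMM (SE 0.04, edgeR adjusted p = 0.0572), 0.05 with library totals and 0.04 on log2(TPM + 1). The sign depended on the scaling, and no direction can be given for the change itself. Relative to the median of all genes in these settings, in that order, Lamp1 was at -0.13, -0.13 and -0.08. Ctsl was at -0.25, -0.25 and -0.21 on the same footing. Lamp1 did pass with DESeq2 (-0.12, adjusted p = 0.0077) and without LPS replicate 3 (-0.13, edgeR adjusted p = 0.0293).

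**Figure D3:**
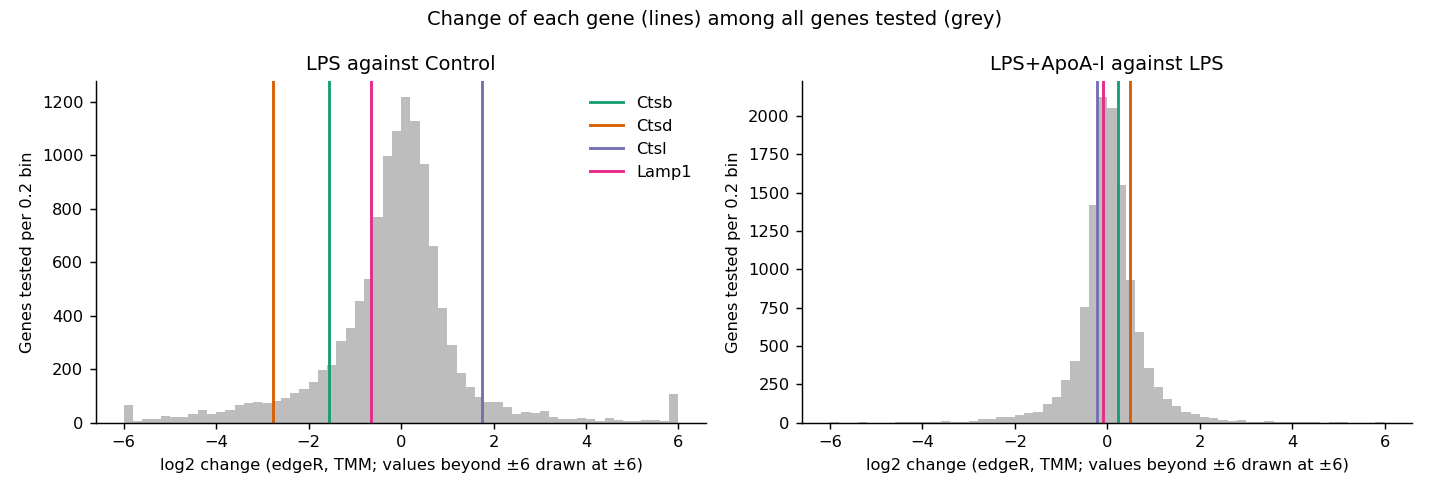
Log2 change of the 4 genes (coloured lines) within the distribution over all 11902 genes tested (grey, genes per bin of 0.2), for LPS against Control and for LPS+ApoA-I against LPS. In the first comparison Ctsd at -2.77 and Ctsl at 1.75 lie in opposite tails, and in the second all 4 genes lie between -0.22 and 0.48.

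The LPS response under ApoA-I, LPS+ApoA-I against ApoA-I, compares 8 libraries of which none enters LPS against Control. The fit took its spread and scaling from all libraries, so its tests are not independent of those for LPS against Control. Ctsd fell 4.56-fold, Ctsb fell 2.43-fold, Lamp1 fell 1.75-fold and Ctsl rose 3.0-fold (edgeR, n = 4 each). All 4 genes passed the test, against 69.4% of all genes tested, each in the same direction as without ApoA-I. In all 4 the TPM values of the groups did not overlap, against 63.9% of all genes tested. The log2 changes were -2.19 for Ctsd (SE 0.07, edgeR adjusted p = 1.19e-17), -1.28 for Ctsb (SE 0.05, adjusted p = 1.70e-15), 1.58 for Ctsl (SE 0.05, adjusted p = 3.84e-17) and -0.81 for Lamp1 (SE 0.04, adjusted p = 4.04e-13).

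Against Control, cells with LPS and ApoA-I together kept most of the LPS pattern. Ctsd was lower, with a log2 change of -2.28 (SE 0.07, edgeR adjusted p = 5.05e-18), as was Ctsb with -1.31 (SE 0.05, adjusted p = 9.99e-16). Lamp1 was also lower, with -0.75 (SE 0.04, edgeR adjusted p = 1.20e-12), and Ctsl higher, with 1.54 (SE 0.05, adjusted p = 5.21e-17). All 4 passed, against 69.6% of all genes tested, and all 4 had TPM values without overlap, against 64.8%. In LPS+ApoA-I libraries the levels ran from Ctsb at 1294 ± 81.1 TPM through Ctsl at 913 ± 44.6 and Ctsd at 487 ± 41.1 to Lamp1 at 291 ± 13.2 TPM (SD, n = 4), with no overlap between neighbours. Their sum was 0.298% ± 0.0146 of all TPM, against 0.779% ± 0.0252 in Control libraries (SD, n = 4 each).

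The interaction is the difference between the 2 LPS responses, with ApoA-I and without it. In edgeR 3 of the 4 genes passed, against 41.0% of all genes tested; the call of Lamp1 among them was lost under several alternatives. For Ctsd it was 0.57 log2 units (SE 0.09, edgeR adjusted p = 2.18e-05) and for Ctsb 0.27 (SE 0.07, edgeR adjusted p = 0.00496), so the fall with LPS was smaller in the presence of ApoA-I for these 2 genes. Both passed under every alternative tried, with values from 0.54 to 0.66 for Ctsd and from 0.24 to 0.36 for Ctsb.

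For Lamp1 the interaction was -0.16 (SE 0.06, edgeR adjusted p = 0.0483), at the edge of the threshold. It was -0.07 with library totals (edgeR adjusted p = 0.588). The call was lost when any of 11 libraries was left out (Control 1 and 4, ApoA-I 1, 2 and 4, LPS 1, 2 and 4, LPS+ApoA-I 1, 2 and 4), with values of -0.16 to -0.13 and edgeR adjusted p from 0.0593 to 0.112. For Ctsl it was -0.17 (SE 0.07, edgeR adjusted p = 0.0571), -0.08 with library totals (edgeR adjusted p = 0.529) and -0.11 on log2(TPM + 1) (limma adjusted p = 0.289). Ctsl passed when Control 4 (-0.19, edgeR adjusted p = 0.0468), ApoA-I 1 (-0.19, 0.0419), LPS 1 (-0.20, 0.0401) or LPS+ApoA-I 2 (-0.20, 0.0297) was left out.

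**Figure D4:**
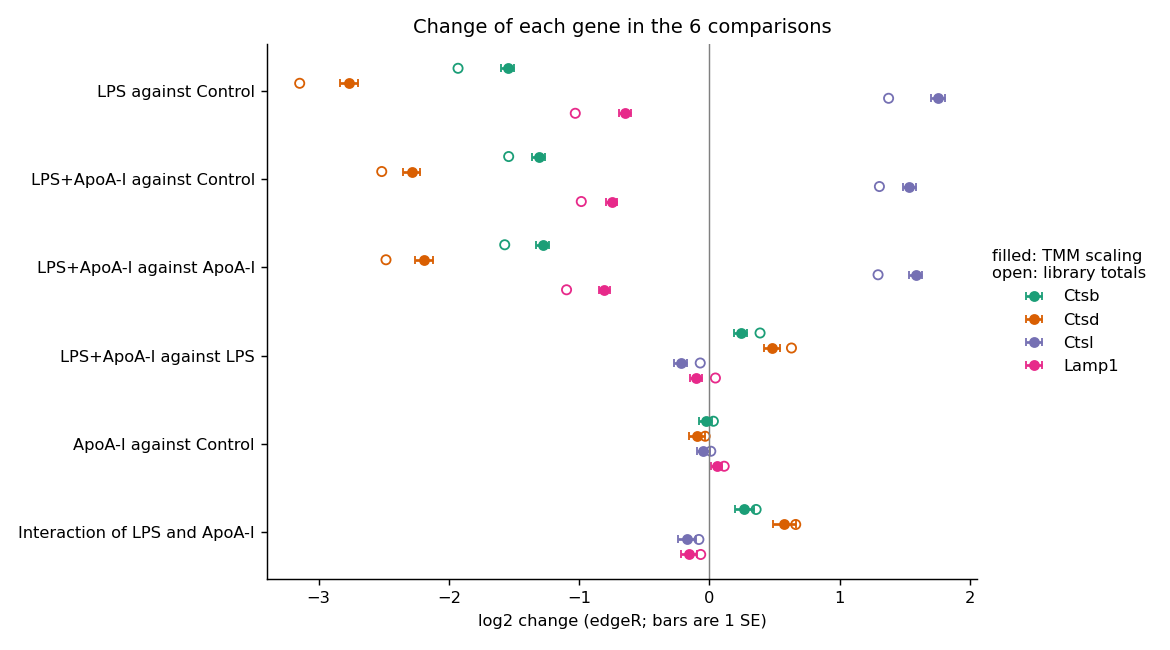
Log2 change of each gene in 6 comparisons from edgeR, with TMM scaling (filled, bars of 1 SE) and with library totals only (open). The changes with LPS keep their direction under both scalings, and for LPS+ApoA-I against LPS Lamp1 is at -0.10 with TMM and 0.05 with library totals.

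The ratio of 2 genes within a library does not depend on how libraries are scaled. All 6 pairs of the 4 genes were compared in the 5 comparisons of 2 groups by a two-sided exact permutation test on the log2 ratio of TPM, with Benjamini-Hochberg adjustment over these 30 tests. The smallest p that 4 libraries against 4 allow is 0.0286, and it was reached in 23 tests, each with an adjusted p of 0.0373. These were all 6 pairs in LPS against Control, in LPS+ApoA-I against ApoA-I and in LPS+ApoA-I against Control, and 5 of 6 in LPS+ApoA-I against LPS. In ApoA-I against Control 0 of 6 passed, and 0 had an unadjusted p under 0.05. The share of other gene pairs that would pass was not computed. Among single genes, 68.9% had no overlap in TPM in LPS against Control. The 6 ratios are built from 4 genes and the comparisons share libraries, so the 30 tests are not independent.

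The ratio of Ctsl to Ctsd, a cysteine against an aspartic protease, moved most. It was 2.77, 3.25, 3.19 and 3.01 in LPS libraries, against 0.137, 0.130, 0.128 and 0.138 in Control libraries. LPS libraries thus held more Ctsl than Ctsd transcripts, and Control libraries the reverse. The ratio was 22.9-fold higher (4.52 log2 units, SE 0.06, exact permutation adjusted p = 0.0373). With ApoA-I it was 2.0, 2.07, 1.78 and 1.69 in LPS+ApoA-I libraries, below all 4 LPS libraries, a log2 difference of -0.70 (SE 0.09, exact permutation adjusted p = 0.0373).

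Within the cysteine proteases, the ratio of Ctsl to Ctsb was 0.708 ± 0.0531 in LPS+ApoA-I, 0.971 ± 0.0362 in LPS and 0.0982 ± 0.0016 in Control libraries (SD, n = 4 each). It was 1.37-fold lower in LPS+ApoA-I than in LPS libraries (exact permutation adjusted p = 0.0373). The 2 proteases that fell also fell by unequal amounts. Ctsb to Ctsd was 2.66 ± 0.0654 in LPS+ApoA-I, 3.15 ± 0.148 in LPS and 1.36 ± 0.0372 in Control libraries (SD, n = 4 each). Every LPS+ApoA-I library lay between the LPS and the Control libraries.

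Relative to Lamp1, Ctsd was at 1.13 ± 0.0719 in LPS and 4.88 ± 0.158 in Control libraries, and Ctsb at 3.54 ± 0.189 in LPS and 6.61 ± 0.232 in Control libraries (SD, n = 4 each). Both ratios were higher in LPS+ApoA-I than in LPS libraries, Ctsd to Lamp1 at 1.67 ± 0.0720 and Ctsb to Lamp1 at 4.45 ± 0.106 in LPS+ApoA-I (SD, n = 4 each). Ctsl to Lamp1 was the pair that did not pass in LPS+ApoA-I against LPS, with 3.15 ± 0.169 in LPS+ApoA-I and 3.43 ± 0.201 in LPS libraries (SD, n = 4 each; log2 difference -0.13, SE 0.06, exact permutation adjusted p = 0.132). The changes of Ctsl and Lamp1 with ApoA-I in LPS-treated cells were thus not told apart.

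**Figure D5:**
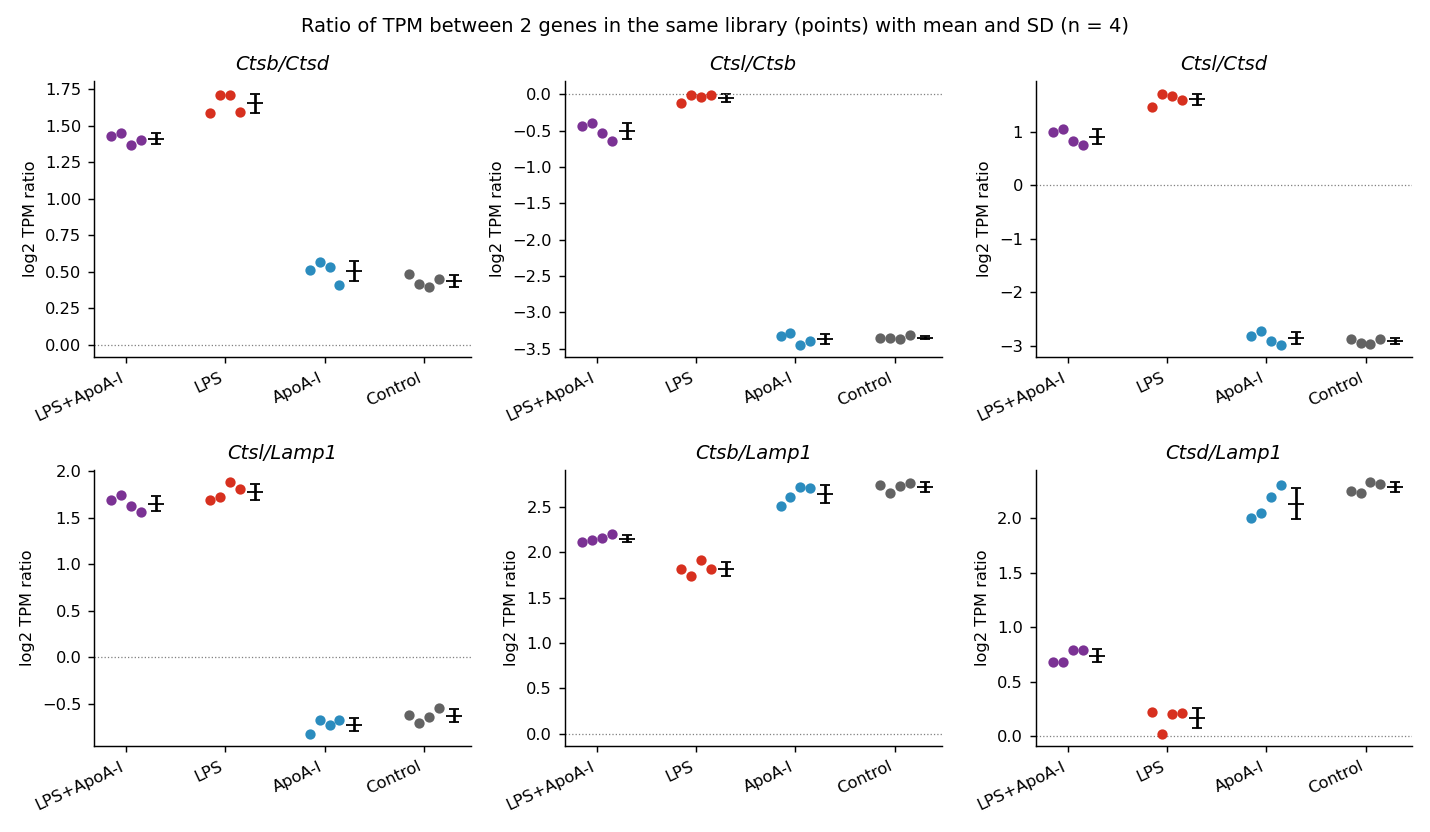
Log2 ratio of TPM between 2 genes in the same library (points) by group, with the mean and SD of 4 libraries and a dotted line at equal levels. Libraries with LPS stand apart from those without in all 6 pairs, and LPS+ApoA-I libraries overlap LPS libraries only for Ctsl/Lamp1.

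The tested genes whose log2 CPM followed each of the 4 genes most closely over the 16 libraries are a description, since the libraries fall into those with and without LPS. For Ctsb it was ENSRNOG00000018233 (Pearson's r = 0.9985), which had a log2 change of -4.31 for LPS against Control where Ctsb had -1.55. For Ctsd it was ENSRNOG00000010284 (r = 0.9987), with -3.65 where Ctsd had -2.77, and for Ctsl ENSRNOG00000036693 (r = 0.9979), with 1.93 where Ctsl had 1.75. The closest gene to Lamp1 had an r of 0.9943.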

How the data were processed

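Per the labels' protocols, RNA came from a column kit and libraries from a sequencing company. The authors deposited 2 tables, estimated counts per gene and TPM per gene, for each library. Tools named in the submitters' processing notes, with no role stated, are RSEM 1.3.1, STAR 2.7.10b and cutadapt 1.8.1; the build named there is mm10, of the mouse, while the identifiers are Ensembl rat genes. The sources used here do not name the annotation, and the effect of a mismatch was not tested.

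Counts were rounded (3.24% were not whole, tolerance 0.005) and kept by filterByExpr (minimum count 10). One edgeR 4.0.16 model in R 4.3.3 held all libraries, with group means, TMM, the quasi-likelihood test, 12 residual degrees of freedom and Benjamini-Hochberg adjustment over 11902 genes at 0.05. An SE is the absolute log2 change over the square root of F. Log2 CPM used a prior count of 2. Levels and ratios use the deposited TPM. DESeq2 1.42.0 and limma 3.58.1 were alternatives. The fit was also run on simulated counts with few genes changed, unlike the LPS comparisons, so that run does not bear on the scaling there. No 2 replicates were alike enough to be 1 library (lowest chi-square per degree of freedom 3.14).

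Named are the 4 genes of the set and, for each, the closest tested gene, with identifiers for 3 of these, 2 that fell and 1 that rose. Planned lists of lysosomal genes and cell type markers could not be applied, since RefSeq's table gives an Ensembl identifier for 0 of 47357 genes. The genes, lists and tests were chosen with earlier results of these data known.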

Additional observations from a re-analysis of the deposited data

Results flagged for a closer look

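By edgeR's interaction test, LPS-treated and LPS-free cells differed in what ApoA-I did to Ctsd (0.57 log2 units), Ctsb (0.27) and, at the edge of the threshold, Lamp1 (-0.16). The Lamp1 call was lost when any of 11 libraries was left out. Ctsl, at -0.17, did not pass (edgeR adjusted p = 0.0571).

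In 6 of 48 sets of 4 values examined, 1 library stood far from the other 3. For a single set of normally distributed values chance gives about 1 in 20. The sets overlap, as ratios reuse the levels, and the 8 abundant genes were chosen by how they varied within groups. The 6 sets can therefore not be weighed against that rate. LPS 4 was the highest for Ctsb, with 1070.2 TPM. LPS 2 had the lowest Ctsd to Lamp1 ratio, 1.02. Lamp1 was highest in ApoA-I 1 among ApoA-I libraries, with 707 TPM, and in Control 2 among Control libraries, with 647 TPM. LPS 3 had the highest total of its group, 16386274 estimated counts. Of the counts of ApoA-I 2, 9.43% lay in 8 abundant genes that varied together within groups and include none of the 4 genes, against 1.61% to 2.66% in the other ApoA-I libraries. LPS 4 stood apart in the same share, just short of that limit, with 2.08% against 10.2% to 11.96% in the other LPS libraries. The share was 4.05% to 11.9% in Control and 6.81% to 12.8% in LPS+ApoA-I libraries. Without LPS 4 the Ctsd change was -2.79 for LPS against Control and 0.50 for LPS+ApoA-I against LPS, and the Ctsb changes there were -1.55 and 0.24. The part of these differences in the results was not tested beyond leaving out each library and using that share as a covariate, both described under the processing.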

How the results depend on the processing

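All 4 genes kept their direction and call under every alternative tried for LPS against Control, LPS+ApoA-I against ApoA-I and LPS+ApoA-I against Control, and so did Ctsb and Ctsd for LPS+ApoA-I against LPS and for the interaction. No gene passed for ApoA-I against Control under any alternative. The 30 ratios kept direction and call with CPM in place of TPM. With 1 library left out the ratios have no test that can pass (smallest exact permutation p 0.0571). Of the values, 1 changed sign: Ctsl to Ctsb for ApoA-I against Control, -0.0165 with all libraries, was 0.0109 without ApoA-I 3.

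The sign or call of smaller changes depended on the scaling, as did the size of the larger ones. With library totals, log2(TPM + 1) and log2(TPM + 0.1), in that order, Lamp1 turned to 0.0461, 0.0435 and 0.0437 for LPS+ApoA-I against LPS, and Ctsl no longer passed there, at -0.0705, -0.082 and -0.0821. For ApoA-I against Control, Ctsb turned to 0.0303, 0.0425 and 0.0425 and Ctsl to 0.0104, 0.0259 and 0.026. The Lamp1 interaction no longer passed, at -0.067, -0.0797 and -0.0798, nor with no filter (-0.1445) or with the log2 share of the 8 abundant genes as a covariate (-0.1542). Library totals shift every gene of a comparison by nearly the same amount. The SE also differed between settings, as for the Lamp1 interaction, with 0.09 under library totals and 0.06 with TMM. The cause of the lost calls was not tested.

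Lamp1 passed for LPS+ApoA-I against LPS with DESeq2's size factors in edgeR (-0.1233), a minimum count of 50 (-0.1055), DESeq2 (-0.1228) and only the groups compared (-0.106). Ctsl passed for the interaction with DESeq2's size factors (-0.1966), a minimum count of 50 (-0.1705) and DESeq2 (-0.1965), but was -0.0809, -0.108 and -0.1081 with library totals, log2(TPM + 1) and log2(TPM + 0.1). With 1 library left out, values ran from -0.1294 to -0.0792 for Lamp1 in LPS+ApoA-I against LPS, and for the interaction from -0.1843 to -0.134 for Lamp1 and from -0.2023 to -0.145 for Ctsl.

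Of all genes, 508 were called for ApoA-I against Control, but 806 with DESeq2, 310 and 238 on log2(TPM + 1) and log2(TPM + 0.1), 94 with only the groups compared and 224 with the covariate. With 1 library left out the count ran from 186 (ApoA-I 1) to 775 (Control 4), and was 284, 325 and 202 without Control 1, 2 and 3.

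Libraries of different groups share replicate numbers, but 3 of 24 same-numbered pairs had deviations correlated above 0.1 (-0.18 to 0.18), so the numbers were not taken to pair libraries. With the number as a replicate block the Lamp1 interaction was -0.1581 (edgeR adjusted p = 0.0575), and no other call among the 4 genes changed.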
